A study of Drosophila melanogaster with 6 samples.

Results

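The vacuolar H+ ATPase, or V-ATPase, was followed through the genes whose symbol begins with Vha and which have an Affymetrix probe set assigned to a single gene. There were 31 such genes, with 32 probe sets, among 11982 genes with a single-gene probe set. Vha16-1 had 2 probe sets, and the one with the higher mean over all 6 arrays stood for the gene. By the subunit each name denotes, 11 genes belonged to the V1 sector, 18 to the V0 sector and 2 encoded accessory proteins. Vha68-1 and Vha68-2, further genes of the catalytic A subunit, were not used here.

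RNA came from the eye-antennal discs of Drosophila melanogaster larvae at the wandering third-instar stage, epithelial sacs from which the eye, the antenna and the surrounding head cuticle of the fly arise. All larvae were of the w1118 strain and were grown at one temperature. Tumour discs carried ey-Gal4 GS(2)88A8 UAS-Dl/+, in which ey-Gal4 drives expression in the developing eye, and control discs carried GS(2)88A8 UAS-Dl/+ without a driver. UAS-Dl is a transgene for Delta, a ligand of Notch, and GS(2)88A8 is a Gal4-responsive insertion known to act on lola and psq, genes of BTB-domain transcription factors. Both genotypes held both. Each genotype had 3 arrays, each from a pool of many discs, and no sample carried the driver alone. The driver acts in only a portion of the dissected disc. In such bulk samples fewer cells of a type and less RNA per cell cannot be told apart.

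The V-ATPase is a rotary pump that moves protons into endosomes, lysosomes and secretory vesicles. Its V1 sector lies in the cytosol and hydrolyses ATP, and its V0 sector lies in the membrane and carries the protons. In Drosophila discs the pump is known to be needed for normal Notch receptor trafficking and signalling, and in many animals it takes part in the activation of TORC1 at the lysosome. Many of its subunits have several gene copies in Drosophila, and some copies have a narrow expression in adult organs such as the testis.

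The values were log2 intensities made by the authors with GCRMA, with a floor of 2.165 that marks no measurable signal. A probe set was tested when it reached a log2 value of 4 on at least 3 of the 6 arrays. Between 7864 and 8004 probe sets reached 4 on an array. In each genotype the array of replicate 1 differed from the other arrays. Its difference from them had a median of -0.34 log2 over 6447 tested genes and of -0.18 over the tested V-ATPase genes (V1 -0.11, V0 -0.31). Control replicate 3 stood apart in another way: of 5 measured fat body markers, none of which passed the filter, Lsp2, Fbp1 and Fbp2 had 6.51, 5.52 and 5.55 on that array. Their highest values on any tumour array were 3.11, 3.24 and 2.17, and the other control arrays had no more than 3.06, 3.24 and 2.17. The part of fat body RNA in the V-ATPase values was not tested. Differences were fitted with limma both without a block and with the replicate number as a block, and again with replicates 2 and 3 alone. Of the driven genes, none was called in the unblocked fit. Delta differed by 0.24, lola by 0.46 and psq by 0.04 log2, with adjusted p-values from limma of 0.33, 0.10 and 0.57 in the blocked fit. For each of these genes and for ey, only the tested single-gene probe set with the highest mean over the 6 arrays was read. Other probe sets of these genes are not given here. The driver's own gene ey had 9.83, 10.55 and 10.58 in tumour discs against 8.39, 9.48 and 9.38 in control discs. It rose by 1.24 in the blocked fit (limma adjusted p = 0.0056) and was not called in the unblocked fit (limma adjusted p = 0.32).

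Discs of both genotypes gave signal for a nearly full set of pump subunits, mostly from 1 gene a subunit. Subunits B, C, E, G and H had only 1 gene each among those followed here, so they could not show more. In V1, 7 of the 8 subunits had a tested gene. They were B (Vha55), C (Vha44), D (Vha36-1), E (Vha26), F (Vha14-1), G (Vha13) and H (VhaSFD). The exception was the catalytic A subunit, whose single gene here, Vha68-3, lay at the floor on all 6 arrays. In V0, all 5 subunits had a tested gene. Subunit c had Vha16-1, subunit c'' had VhaPPA1-1 and subunit d had VhaAC39-1. Subunit a had Vha100-1 and Vha100-2, and subunit e had VhaM9.7-a, VhaM9.7-b and VhaM9.7-c. Both accessory genes, VhaAC45 and VhaAC45RP, were tested, which made 17 tested genes in all.

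Most of the other copies lay near the floor of the scale. In both genotypes 13 of the 31 genes stayed under a log2 value of 3 on every array, and 10 of them sat at the lowest value of the scale on all 6. They were 10 of 18 V0 genes and 3 of 11 V1 genes. The share of V-ATPase genes near the floor, 41.9%, was close to the 42.4% of all genes with a single-gene probe set. In V0 these were Vha100-3, Vha100-4, Vha100-5, Vha16-2, Vha16-3, Vha16-4, Vha16-5, VhaPPA1-2, VhaAC39-2 and VhaM9.7-d. In V1 they were Vha68-3, Vha36-2 and Vha14-2. The highest single value among these 13 genes was 2.29, for VhaAC39-2 on the tumour replicate 2 array. No fold was computed for any of them, since both genotypes were at the floor. Vha100-4, known from the acid-secreting region of the Drosophila midgut, is an example. Of 5 measured testis and germline markers, 4 also lay near the floor and 1, twe, was tested.

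**Figure D1:**
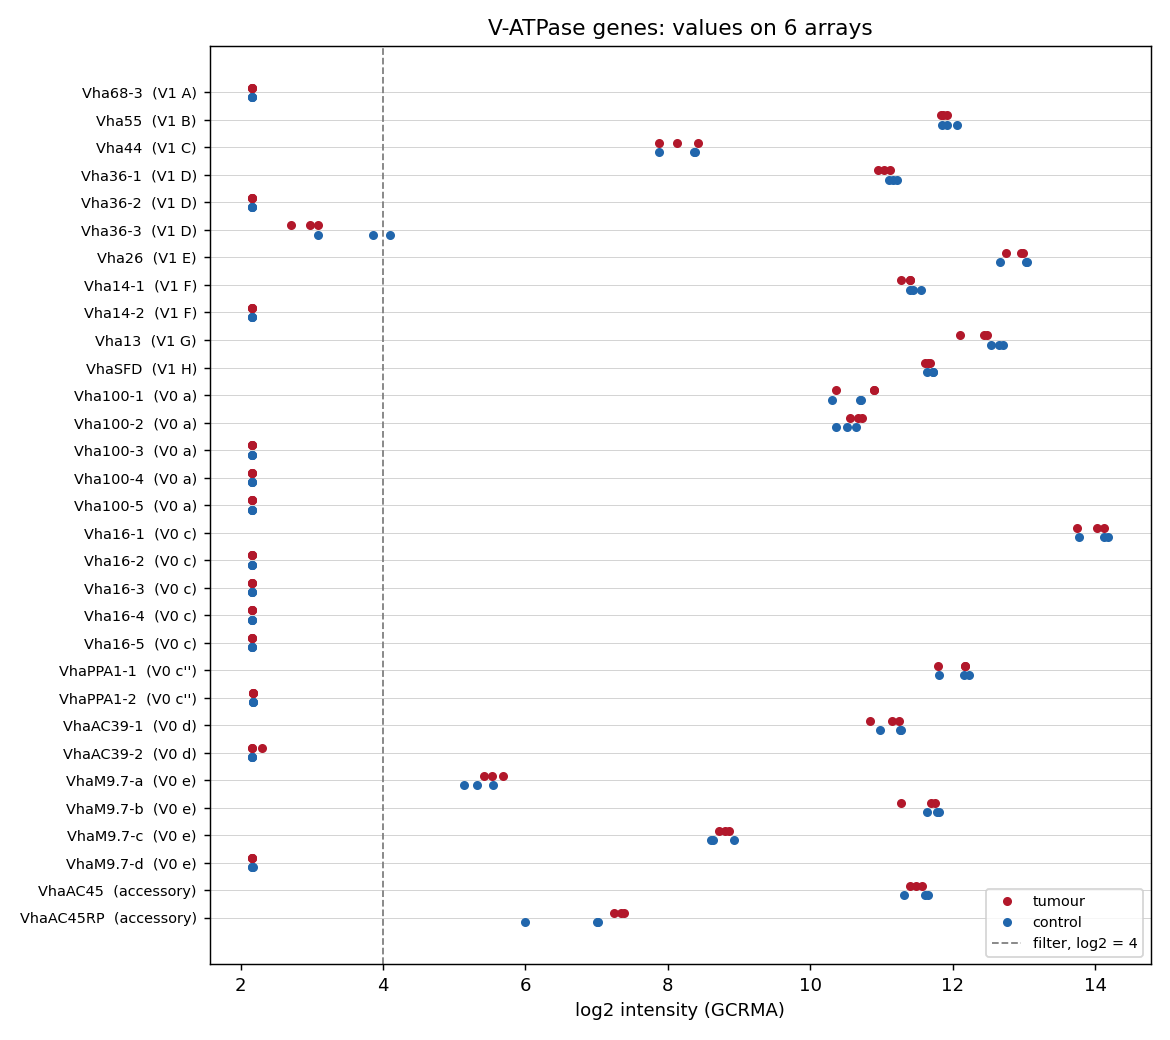
Log2 intensity (horizontal axis) of the 31 V-ATPase genes on 3 tumour arrays (upper dots of each row) and 3 control arrays (lower dots), with the sector and subunit beside each name. The dashed line marks the filter at 4; 17 genes lie above it on all arrays, 13 lie near the floor of 2.165 and Vha36-3 lies between.

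Copies that lie close to each other in the genome could differ in this respect. In the gene order of the RefSeq annotation (assembly Release 6) Vha100-4 and Vha100-2 are adjacent protein-coding genes. Vha100-2 ranged from 10.36 to 10.73 over the 6 arrays, while Vha100-4 stayed at the floor. VhaPPA1-2 and VhaPPA1-1 are separated by 1 protein-coding gene, and of these VhaPPA1-1 was tested and VhaPPA1-2 was at the floor. Vha16-3 and Vha16-2 are adjacent as well, and both were at the floor.

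Vha36-3 was the gene between these states. This copy of subunit D had 2.70, 2.98 and 3.09 in tumour discs against 3.09, 4.10 and 3.86 in control discs. The tumour value was the lower one in each same-number pair, but the highest tumour value and the lowest control value met at 3.09. Only 1 array reached the filter, so the gene was not tested. In a fit with no filter its difference was -0.76 log2, with a limma adjusted p = 1. The nearest gene on the other side of the filter was VhaM9.7-a, whose lowest value was 5.14.

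No tested V-ATPase gene was called between tumour and control discs. Limma called 0 of 17 at an adjusted p of 0.05 without a block, with the block and with replicates 2 and 3 alone. Over all tested genes these fits called 0.512%, 9.45% and 7.17%, with 0.14%, 4.06% and 2.98% higher and 0.372%, 5.38% and 4.19% lower in tumour discs. At an unadjusted p under 0.05 the unblocked fit held 0 of 17 genes (8.73% of all tested genes) and the blocked fit held 4 of 17 (30% of all tested genes). Without control replicate 3 the unblocked limma fit again called 0 of 17, and 0 of 6447 genes in all, so its count says little. The 4 genes of the blocked fit were Vha13, Vha100-1, Vha100-2 and VhaAC45RP. The measured differences, tumour minus control, ran from -0.29 to 0.65 log2, or 0.818-fold to 1.56-fold. Without VhaAC45RP, the 95% intervals of the blocked fit lay between -0.57 and 0.59 for every tested gene. Those of the unblocked fit lay between -0.61 and 0.63.

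The ATP-hydrolysing sector V1 had small negative differences. All 7 tested V1 genes had a value below 0, with a median of -0.07 log2, against 38.5% of all tested genes and a median of 0.05 over all tested genes. In all 3 same-number pairs the tumour value was the lower one for 5 of the 7, against 20.6% of all tested genes. None of these differences passed limma's test, and no test was made of the sector as a whole. The number below 0 was 5 of 7 without tumour replicate 1, without control replicate 2 or without control replicate 3. The median of all tested genes was 0.15, 0.11 and 0.11 in these fits. Without control replicate 3 the V1 median was -0.04. In the blocked fit the number below 0 was 5 of 7 without replicate 2, and 7 of 7 without replicate 1 or replicate 3.

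Vha13 encodes subunit G, part of the peripheral stalks that hold V1 still against the rotor. It had 12.10, 12.48 and 12.45 in tumour discs against 12.71, 12.54 and 12.65 in control discs. The tumour arrays all lay below the control arrays, and tumour replicate 1 lay furthest below. The difference was -0.29 ± 0.11 log2 (SE of the blocked fit; limma adjusted p = 0.62 unblocked and 0.16 blocked), the most negative of the tested V-ATPase genes. Without tumour replicate 1 it was -0.17, in a fit that kept control replicate 1 and moved the median of all tested genes to 0.15. With replicates 2 and 3 alone it was -0.13 (limma adjusted p = 0.20).

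Vha14-1 encodes subunit F of the central rotor. It had 11.27, 11.41 and 11.41 in tumour discs against 11.41, 11.44 and 11.55 in control discs. The genotypes again did not overlap, by a narrow margin, and the difference was -0.11 ± 0.048 log2 (SE of the blocked fit; limma adjusted p = 0.94 unblocked and 0.21 blocked). Vha13 and Vha14-1 were the 2 tested V-ATPase genes with all tumour arrays below all control arrays, a state found for 7.2% of all tested genes.

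Vha36-1, the tested gene of the rotor shaft subunit D, had 10.96, 11.03 and 11.12 in tumour discs against 11.16, 11.10 and 11.22 in control discs. Its ranges overlapped slightly, and its difference was -0.12 ± 0.051 log2 (SE of the blocked fit; limma adjusted p = 0.89 unblocked and 0.19 blocked). Vha55 encodes subunit B, which alternates with A in the ATP-binding head. It had 11.83, 11.87 and 11.92 in tumour discs against 11.85, 11.92 and 12.07 in control discs. The values of Vha55 overlapped, and the 95% interval of its difference in the blocked fit ran from -0.19 to 0.05.

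VhaSFD encodes subunit H, known to restrain ATP hydrolysis in V1 that has left the membrane. It had 11.68, 11.62 and 11.65 in tumour discs against 11.73, 11.64 and 11.72 in control discs. All 6 values lay close together. The interval of its difference in the blocked fit ran from -0.16 to 0.06 log2. Vha26 encodes subunit E, the partner of G in the peripheral stalks. It had 12.75, 12.96 and 12.99 in tumour discs against 12.67, 13.03 and 13.04 in control discs. Its genotypes overlapped fully, and the replicate 1 arrays of both were the lowest. The difference of Vha26 was -0.02, with an interval from -0.14 to 0.10 in the blocked fit. That interval overlapped the one of its partner Vha13, from -0.57 to -0.01. With replicates 2 and 3 alone the differences were -0.06 for Vha26 and -0.13 for Vha13. The difference between the genes was not tested.

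Vha44 encodes subunit C, which clamps V1 to V0 and leaves when the sectors part. It had 7.87, 8.13 and 8.42 in tumour discs against 7.87, 8.37 and 8.38 in control discs. The spread within each genotype exceeded the distance between them. The interval in the blocked fit, from -0.30 to 0.17 log2, was among the wider ones in V1.

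**Figure D2:**
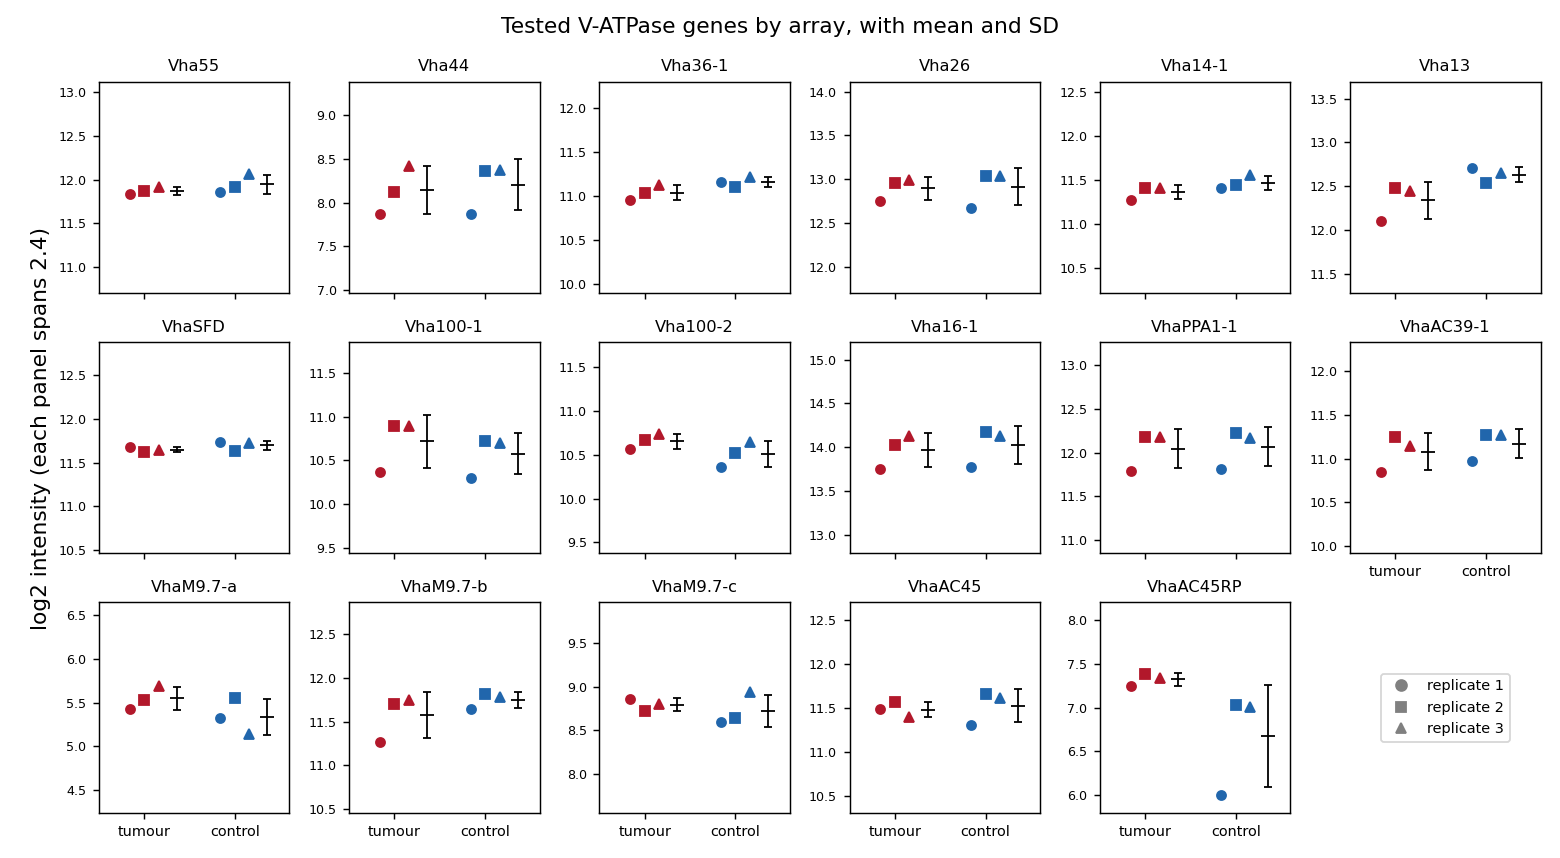
Log2 intensity (vertical axis, each panel spanning 2.4 units) of the 17 tested V-ATPase genes in tumour (left) and control (right) discs; symbols mark the replicate number, and bars the mean and SD of 3 arrays. The genotypes overlap in all panels except those of Vha13 and Vha14-1, where tumour lies below control, and VhaAC45RP, where it lies above.

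The membrane sector V0 had differences of both signs. Of 8 tested genes 4 were above 0 and 4 below, with a median of 0.02 log2. Leaving out single arrays moved that median to between -0.07 and 0.08, with 0.07 without control replicate 3. Over the same fits the median of all tested genes moved between -0.07 and 0.15. In all 3 pairs 3 genes were lower in tumour discs and 2 were higher, against 20.6% and 35.7% of all tested genes. The tested paralogues of subunit a were the 2 that were higher in every pair.

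Subunit a holds the half-channels through which protons enter and leave the ring. Vha100-1, known for its role in Drosophila neurons and their synapses, had 10.36, 10.89 and 10.89 in tumour discs against 10.30, 10.72 and 10.70 in control discs. Each tumour array exceeded its same-number control, while the replicate 1 arrays of both genotypes lay below all others. The difference of Vha100-1 was 0.14 ± 0.053 log2 (SE of the blocked fit; limma adjusted p = 1 unblocked and 0.16 blocked). With replicates 2 and 3 alone it was 0.18 (limma adjusted p = 0.087). Without control replicate 1 it was 0.01, but that fit kept tumour replicate 1, and the median of all tested genes moved to -0.07.

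Vha100-2 had 10.56, 10.67 and 10.73 in tumour discs against 10.36, 10.52 and 10.65 in control discs. Its genotypes overlapped, with a difference of 0.15 ± 0.052 log2 (SE of the blocked fit; limma adjusted p = 0.91 unblocked and 0.14 blocked). Both tested copies of subunit a thus had blocked intervals from 0.01 to 0.28 and neither passed the test over all probe sets.

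The rotor ring is made of subunits c and c''. Vha16-1, the one measurable copy of c, had 13.75, 14.02 and 14.13 in tumour discs against 13.78, 14.18 and 14.13 in control discs. The genotypes overlapped, and the difference of -0.06 had an interval from -0.18 to 0.05 in the blocked fit. Its second probe set differed by -0.13 (limma adjusted p = 0.83 unblocked and 0.13 blocked). VhaPPA1-1, for c'', had 11.79, 12.18 and 12.18 in tumour discs against 11.81, 12.23 and 12.16 in control discs. Its replicate 1 arrays were the lowest in both genotypes and the rest lay together, with an interval of the difference from -0.13 to 0.08, the narrowest of the tested V-ATPase genes in the blocked fit.

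VhaAC39-1 encodes subunit d, which couples the ring to the shaft of V1. It had 10.84, 11.25 and 11.14 in tumour discs against 10.98, 11.27 and 11.28 in control discs. Tumour was the lower value in each pair, the ranges overlapped, and the difference was -0.09 ± 0.050 log2 (SE of the blocked fit; limma adjusted p = 1 unblocked and 0.28 blocked).

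The 3 tested genes of the small membrane subunit e did not share a direction. VhaM9.7-b had 11.27, 11.70 and 11.75 in tumour discs against 11.64, 11.81 and 11.78 in control discs, a difference of -0.17 that was -0.07 with replicates 2 and 3 alone. VhaM9.7-c had 8.86, 8.72 and 8.80 in tumour discs against 8.60, 8.64 and 8.94 in control discs, and differed by 0.07. That difference was 0.01 without control replicate 1, with tumour replicate 1 kept, and 0.18 without control replicate 3. It was -0.03 with replicates 2 and 3 alone, and 0.26, 0.08 and -0.14 in the same-number pairs, so it had no steady sign. VhaM9.7-a had 5.42, 5.53 and 5.69 in tumour discs against 5.32, 5.55 and 5.14 in control discs, and differed by 0.21, or 0.11 without control replicate 3. All 3 overlapped between genotypes. Their limma adjusted p-values in the blocked fit were 0.21, 0.67 and 0.38 in this order.

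**Figure D3:**
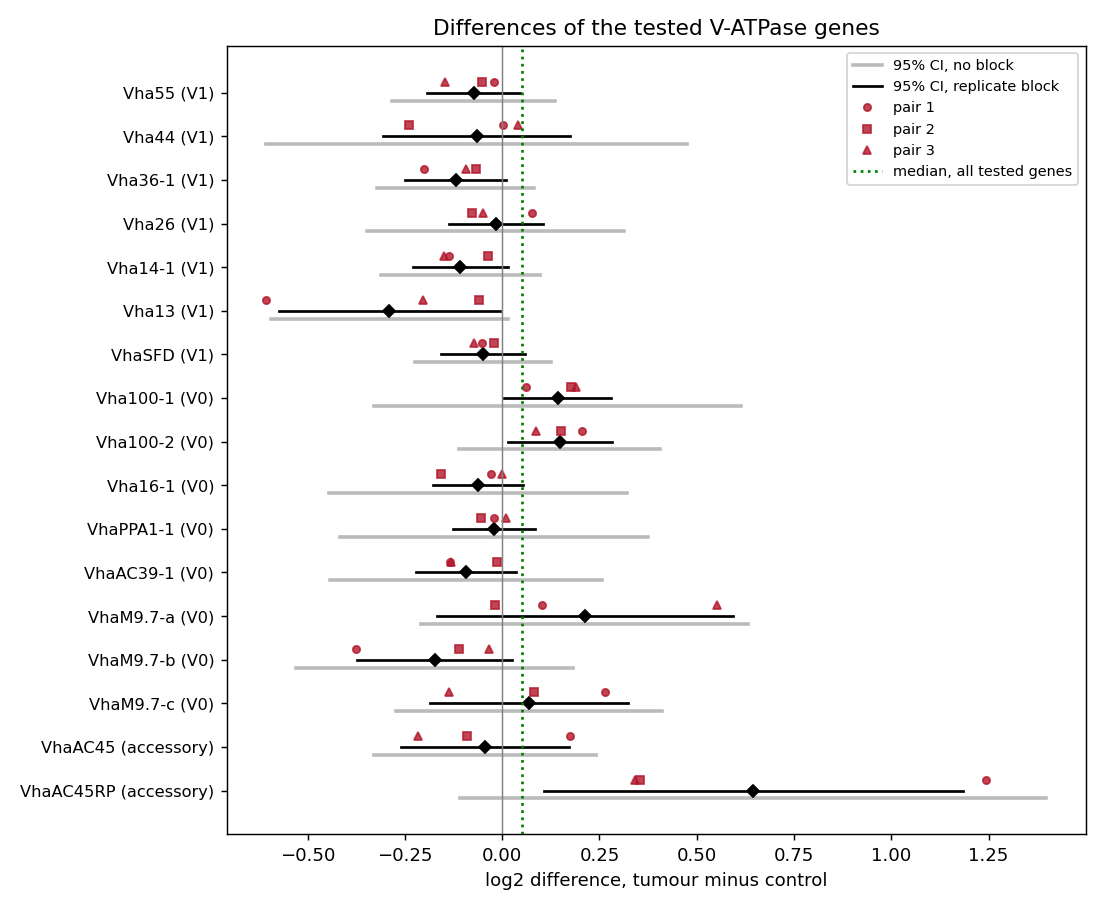
Log2 difference, tumour minus control (horizontal axis), of the 17 tested V-ATPase genes; diamonds mark the fitted difference, black and grey lines its 95% interval with and without the replicate block, and red symbols the 3 same-number pairs. All 7 V1 diamonds lie below 0 while those of V0 lie on both sides; VhaAC45RP, at 0.65, lies furthest from 0, and none passed the test.

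Among the 17 tested genes the largest measured difference was in an accessory gene. VhaAC45RP, a relative of VhaAC45 known from Drosophila neurons, had 7.24, 7.38 and 7.34 in tumour discs against 5.999, 7.03 and 7.002 in control discs. Every tumour array lay above every control array, a state found for 8.72% of all tested genes, and control replicate 1 lay far below the rest. The difference was 0.65 ± 0.21 log2 (SE of the blocked fit), or 1.56-fold, with a 95% interval from 0.11 to 1.18 (limma adjusted p = 0.71 unblocked and 0.12 blocked). Without control replicate 1, in a fit that kept tumour replicate 1, it was 0.31. With replicates 2 and 3 alone it was 0.35 ± 0.082 (limma adjusted p = 0.082).

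VhaAC45, the homologue of the accessory protein that helps assemble and guide the pump in mammals, had a smaller difference. Its values were 11.48, 11.56 and 11.40 in tumour discs against 11.31, 11.65 and 11.61 in control discs, with full overlap. Its difference was -0.04, and its interval in the blocked fit ran from -0.26 to 0.17. ATP6AP2, the gene of the other accessory protein, was once named VhaM8.9 and has a symbol outside the rule for members, and it was looked up after the other values were seen. It had 11.38, 11.74 and 11.85 in tumour discs against 11.28, 11.67 and 11.74 in control discs, a difference of 0.10 (limma adjusted p = 1 unblocked and 0.21 blocked).

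Since VhaAC45RP and Vha100-1 are known from neurons, neuronal and photoreceptor markers were set beside them. All 6 measured markers were tested and none was near the floor. Of all tested genes 38.5% were below 0, while all 6 markers had a positive difference, with a median of 0.42 log2. The blocked limma fit called 2 of them higher, against 4.06% of all tested genes. They were elav, by 0.52 (limma adjusted p = 0.014), and chp, by 0.45 (limma adjusted p = 0.025). The unblocked limma fit called 0, with 1 at an unadjusted p under 0.05, against 8.73% of all tested genes. The log2 of the summed intensity of the 6 markers ranged from 12.13 to 12.34 in tumour discs and from 11.83 to 12.02 in control discs. That sum was set mainly by elav and cpo, the brightest of the markers. In replicate 2 cpo (10.32 against 10.53) and futsch (7.12 against 7.91) were lower in tumour discs than in control discs, while elav, chp, nSyb and brp were higher. The synaptic genes nSyb and brp differed by 0.02 and 0.45 and were not called (limma adjusted p = 1 and 0.84 unblocked). The part of these cells in the values of VhaAC45RP and Vha100-1 was not tested.

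Most markers of muscle, haemocytes and glia had negative differences. Over all tested genes 38.5% were below 0, and limma called 5.38% lower with the block and 0.372% without it. It called 4.06% higher with the block. With replicates 2 and 3 alone it called 4.19% lower and 2.98% higher. At an unadjusted limma p under 0.05 the blocked fit held 30% of all tested genes and the unblocked fit 8.73%. Muscle and myoblast markers had 6 of 6 tested genes below 0, with 4 called lower by limma in the blocked fit, 1 in the unblocked fit and 5 with replicates 2 and 3 alone. They had a summed level of 13.07 to 13.39 in tumour discs and 13.63 to 13.88 in control discs. Haemocyte markers had 7 of 10 below 0, with 2 called lower and 1 higher in the blocked fit, and glial markers 3 of 4 below 0, with 2 called lower. The unblocked limma fit called 0 of both lists, with 4 haemocyte markers and 1 glial marker at an unadjusted p under 0.05. With replicates 2 and 3 alone limma called 1 lower in each list and 1 haemocyte marker higher. The summed haemocyte level was 11.88 to 12.24 in tumour discs and 12.07 to 12.42 in control discs. The gene of the haemocyte list called higher in the blocked fit, lz (0.62), was the brightest of the list in tumour discs. It counts in the summed haemocyte level, and whether its signal came from haemocytes was not tested. The 2 called lower were PPO1 (-1.32) and PPO2 (-1.06). The summed glial level was 12.10 to 12.47 in tumour discs and 12.28 to 12.42 in control discs. It was set mainly by nrv2, which differed by 0.25 and was not called, while Gs2 (-1.37) and moody (-0.41) were called lower in the blocked fit. One muscle marker and 2 glial markers lay near the floor, and no haemocyte marker did. Their part in the small negative differences of V1 was not tested. Of 3 tested tracheal markers, 2 tested tubule markers and 1 tested germline marker, limma called 0 in either fit. In the blocked fit 1 tracheal marker had an unadjusted p under 0.05. The tracheal marker btl failed the filter, with 2.17, 3.27 and 3.27 in tumour discs against 2.46, 4.04 and 4.83 in control discs. Its tumour value was the lower one in each same-number pair.

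Other large complexes give a scale for these differences. Of 27 tested proteasome genes, 20 fell in the blocked limma fit, against 5.38% of all tested genes called lower, and 26 of 27 were below 0, with a median of -0.27 log2. The unblocked limma fit called 0 of these 27, with 5 at an unadjusted p under 0.05, against 8.73% of all tested genes. With replicates 2 and 3 alone limma called 9 of the 27 lower, against 4.19% of all tested genes. Rpn11, the deubiquitinase of the proteasome lid, fell by 0.41 in the blocked fit (limma adjusted p = 0.0094), and next by adjusted p Prosbeta4 fell by 0.32, Prosbeta3 by 0.30 and Rpn3 by 0.38. The mitochondrial ATP synthase is the rotary enzyme that is built like the V-ATPase and runs in reverse. Of its 11 tested genes 10 were below 0, with a median of -0.12, and the blocked limma fit called 0 of them lower. It called ATPsynepsilonL higher, by 0.87 (limma adjusted p = 0.030), a call absent from the unblocked fit (adjusted p = 0.19) and from that of replicates 2 and 3 alone (adjusted p = 0.083). Cytoplasmic ribosomal protein genes, taken by symbol and so with RpLP0-like, RpL24-like and RpL7-like among them, had a median of 0.06 over 34 tested genes. One of these, the paralogue RpS5b, was called higher by limma in both fits. Whether V1 or V0 differ from these sets was not tested.

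**Figure D4:**
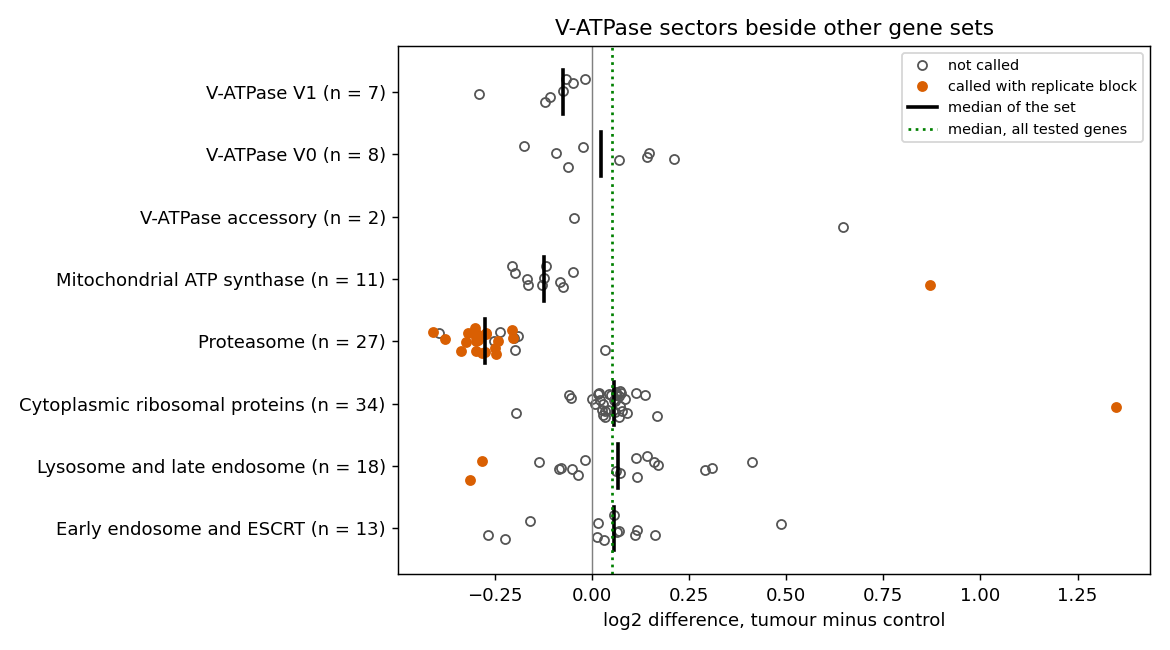
Log2 difference, tumour minus control (horizontal axis), of each tested gene in 8 sets; filled dots were called by limma with the replicate block, open dots were not, thick bars mark medians for sets above 2 genes and the dotted line the median of all tested genes. The proteasome lies at a median of -0.27 with 20 of 27 filled dots, while V1 (-0.07) and V0 (0.02) hold none.

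Genes that work with the pump were described from lists chosen for this purpose. Among 4 tested genes of assembly and regulation, Mitf, whose protein activates V-ATPase genes in Drosophila, differed by 0.06 (limma adjusted p = 1 unblocked and 0.78 blocked). Rbcn-3B, a subunit of the complex that joins V1 to V0, differed by -0.07 and the TLDc-domain gene mtd by 0.03, and neither was called by limma in either fit. The fourth, the glycolytic gene Gapdh1, fell by 0.34 in the blocked fit (limma adjusted p = 0.021) and was not called in the unblocked fit (adjusted p = 0.48).

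Lysosomal and late endosomal genes had a median of 0.07 log2 over 18 tested genes, of which 8 were below 0. The blocked limma fit called 2 lower and none higher, against 5.38% and 4.06% of all tested genes. The unblocked limma fit called 0, with 2 at an unadjusted p under 0.05, against 8.73% of all tested genes. The cathepsin B gene CtsB had 11.66, 12.06 and 12.06 in tumour discs against 11.997, 12.33 and 12.38 in control discs, and fell by 0.31 (limma adjusted p = 0.019 blocked and 0.76 unblocked). Sap-r, which encodes the precursor of saposins, activators of lipid breakdown in lysosomes, fell by 0.28 (limma adjusted p = 0.025 blocked and 0.96 unblocked). With replicates 2 and 3 alone both were called as well, with adjusted p-values from limma of 0.025 and 0.039.

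In the other lists limma called no gene in either fit, against 9.45% of all tested genes with the block and 0.512% without it. At an unadjusted limma p under 0.05 the blocked fit held 30% of all tested genes and the unblocked fit 8.73%. Early endosome and ESCRT genes had a median of 0.06 over 13 tested genes, with 4 at an unadjusted p under 0.05 in the blocked fit and 0 in the unblocked fit. The smallest adjusted p-values there belonged to Stam, at -0.27, and the Rab5 effector gene Rbsn-5, at 0.49 (limma adjusted p = 0.054 blocked for both). Genes of TORC1 activation at the lysosome had a median of 0.08 over 10 tested genes, with 1 at an unadjusted p under 0.05 in the blocked fit. That gene was mio, at 0.22 (limma adjusted p = 0.16 blocked). Of the 6 tested genes that cleave Notch or help to do so, 0 reached an unadjusted p under 0.05 in either fit, and their median was -0.02. The furin gene Fur2 came first among them, at 0.09 (limma adjusted p = 0.33 blocked). Planar polarity genes had a median of 0.17 over 5 tested genes, with stan at 0.21 (limma adjusted p = 0.059 blocked) and 1 gene at an unadjusted p under 0.05. Other ion transport genes had a median of -0.04 over 7 tested genes, with 3 at an unadjusted p under 0.05 in the blocked fit. Among these the Na,K-ATPase beta subunit gene nrv1 was at -0.20 (limma adjusted p = 0.091 blocked).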

How the data were processed

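Arrays were Affymetrix Drosophila Genome 2.0, 3 per genotype. The deposited log2 values were made by the authors with GCRMA, per the submitters' processing notes. No version was stated, and the log2 scale was read from the values (2.165 to 15.79). Of 18952 probe sets 183 controls were left out, and 13647 had 1 gene in GEO's platform annotation. Symbols were updated through gene identifiers of the RefSeq table. Linear models (limma 3.58.1 under R 4.3.3; lmFit and eBayes, trend on) were run on 7962 probe sets at 4 or above on at least 3 arrays, two-sided. Benjamini-Hochberg adjustment ran over all tested probe sets, and 0.05 was the threshold. Counts over genes use each gene's brightest probe set. The samples are labelled biological replicates. Labels number replicates 1 to 3 in both genotypes; same-number samples deviated together (correlations 0.794, 0.467 and 0.723, all over 0.1), so the block is a pairing read from the data, not from the labels. The correlation across numbers was 0.668 between tumour replicate 2 and control replicate 3, above that of pair 2, and 0.473 between tumour replicate 3 and control replicate 2. The data thus set replicate 1 apart but do not tell pairs 2 and 3 from each other. The number of arrays limits the precision.

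In simulated data on these 7962 probe sets for tumour against control, the unblocked fit recovered 1.6% of changes of 0.5 log2 and 37.6% of changes of 1, and the blocked fit 46.8% and 81.2%. V-ATPase genes were all named; of each list, up to 4 genes called in either fit, or those with the smallest p where none was called. The members and lists were chosen with earlier results of these data known. Lists were described by counts and medians, with no set test. Alternatives changed the block, arrays, filter, normalization, probe set choice and variance trend.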

Additional observations from a re-analysis of the deposited data

How the results depend on the processing

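No V-ATPase gene was called in any of the 20 alternative fits, in which the smallest limma adjusted p was 0.075, for VhaAC45RP; 6 of these fits used the replicate block, alone or with another change, and 5 of the 6 were chosen after seeing the data. Limma called 0 of all 6447 tested genes without tumour replicate 2, without control replicate 2 or without control replicate 3. With the block without replicate 3 it also called 0. It called 1 without tumour replicate 3 and 1 with no filter on low values, so the V-ATPase counts of these fits say little. In the paired fit with the replicate block the V-ATPase count was 0 of 17, against 9.45% of all tested genes. A block cannot move a difference in this balanced design, so the medians (-0.05 for all tested V-ATPase genes, -0.07 for V1 and 0.02 for V0) are the same by construction. The block changed calls outside the V-ATPase, as given beside the proteasome, ATP synthase, lysosomal and marker genes. Leaving out single arrays moved the V-ATPase median between -0.14 and 0.04, the V1 median between -0.14 and -0.04 and the V0 median between -0.07 and 0.08; the number of the 17 genes below 0 was 7 to 12, and the median of all tested genes moved between -0.07 and 0.15. Among these the V1 median was -0.130 without tumour replicate 3, -0.138 without control replicate 1 and -0.036 without control replicate 3. After centring on ribosomal protein genes the V1 median was -0.137, with and without the block, the cause being not tested. All 7 V1 genes were below 0 in the unblocked fit, against 5 in each of 3 fits that left out an array. It was also 5 in the blocked fit without replicate 2, and 6 under quantile normalization with and without the block. Vha13, Vha14-1, Vha36-1, Vha55, VhaSFD, VhaM9.7-b, Vha100-1, Vha100-2, VhaM9.7-a and VhaAC45RP had the same sign in each alternative that tested them. The proteasome count was 8 with ribosomal centring, 25 with that and the block, and 0 with the block without replicate 3. Of all 6447 tested genes, limma called 129 lower and 31 higher with ribosomal centring, and 485 and 167 with that and the block. With the block without replicate 3 it called 0 in either direction, so the proteasome count of that fit says little. Changes of 0.5 log2 were recovered for 46.8% of simulated probe sets with the block, so differences of the size seen here could be missed.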
